A study of Mus musculus with 10 samples.

Results

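The genes described here are the insulin-like growth factor (IGF) ligands Igf1 and Igf2, their receptors Igf1r and Igf2r, and the binding proteins Igfbp2, Igfbp3, Igfbp4, Igfbp5, Igfbp6 and Igfbp7. They are a list of 10 genes out of 18193 measured, and all 10 were found. Each was read by its brightest probe set, a group of short oligonucleotides assigned here to 1 gene symbol. Its other probe sets, where it had any, served as a check. The groups were mouse lung fibroblasts labelled as carcinoma-associated (CAF, 5 arrays), a name for the fibroblasts of a carcinoma, and mouse lung fibroblasts labelled as normal (5 arrays). Both grew in culture with 10% serum over 10 to 14 days and were replated overnight before RNA extraction, so the values describe cells in culture. Strain, genotype, age and tumour model of the animals are not given in the sources used here. Values are log2 expression on Affymetrix Mouse430_2 arrays, on which the median over all probe sets was 6.73 to 6.74 in CAF and 6.76 to 6.79 in normal fibroblasts, and a step of 1 is a doubling.

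IGF1 and IGF2 are secreted peptides that signal growth and survival through the tyrosine kinase IGF1R, while IGF2R binds IGF2 and carries it to lysosomes. The IGF binding proteins hold the ligands outside the cell, where they lengthen their life, keep them from the receptor or release them after cleavage by proteases. Fibroblasts are a known source of both the ligands and the binding proteins in lung.

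The brightest of 12 fibroblast markers were high in both groups: Col1a2, a collagen chain, averaged 15.02 in CAF and 15.18 in normal fibroblasts, Vim 14.81 and 14.73, and Fn1 14.75 and 14.73. The mean of the 12 ran from 12.59 to 13.92 over the CAF arrays and from 12.45 to 14.37 over the normal arrays. Not every marker was high on every array. Lum, chosen here after its values were seen, ran from 7.06 to 14.12 in CAF and from 8.18 to 14.49 in normal fibroblasts. Markers of other cells were present too. The mean of 16 macrophage markers ran from 10.72 to 13.21 over the CAF arrays and from 9.68 to 13.26 over the normal arrays, and the brightest, Lyz2, Tyrobp and C1qb, averaged 15.02, 12.88 and 12.67 in CAF and 14.76, 12.50 and 12.54 in normal fibroblasts. The mean of 7 mesothelial markers ran from 7.11 to 9.69 in CAF and from 6.04 to 10.92 in normal fibroblasts, led by Upk1b, Upk3b and Wt1 at 10.81, 9.51 and 9.61 in CAF and 11.29, 10.58 and 9.81 in normal fibroblasts. The 10 endothelial markers had a mean of 6.70 to 6.75 in CAF and 6.73 to 6.99 in normal fibroblasts, close to the array median, with Eng, Egfl7 and Kdr the brightest. The 10 epithelial markers had 6.41 to 7.37 in CAF and 6.71 to 7.66 in normal fibroblasts, with Krt18, Krt8 and Epcam the brightest. In a bulk culture, fewer cells of a type and less RNA per cell cannot be told apart. Arrays within a group are biological replicates per the sample titles, from which the replicate numbers were taken. The description fields name biological replicate 1 on every array. The codes of normal replicates 1 to 3 begin with vs, and those of normal replicates 4 and 5 and of every CAF array begin with ls. The meaning of the prefixes is not given in the sources used here.

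Among the 10 IGF genes the binding proteins Igfbp5, Igfbp3 and Igfbp6 had the largest differences between CAF and normal lung fibroblasts, in opposite directions, and the binding proteins Igfbp2, Igfbp7 and Igfbp4 had the smallest. Igfbp5 was the extreme: its mean was 17.0-fold higher in CAF, and no CAF array overlapped a normal array. Igfbp3 and Igfbp6 had lower means in CAF, and so did the ligand Igf1, whereas Igf2, both receptors and the remaining binding proteins had higher means. In limma's test across all genes 0 of the 10 passed an adjusted p of 0.05, where 137 of 18193 genes (0.753%) passed. At an unadjusted p under 0.05 there were 5 (Igf1, Igf2r, Igfbp3, Igfbp5 and Igfbp6), against 22.3% of all genes. The differences were positive for 7 genes and negative for 3, and their median was 0.32 on the log2 scale, against -0.04 over all genes. Over the 9096 genes brighter than the median gene, which include all of the 10 but Igfbp2, the median was 0.08.

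**Figure D1:**
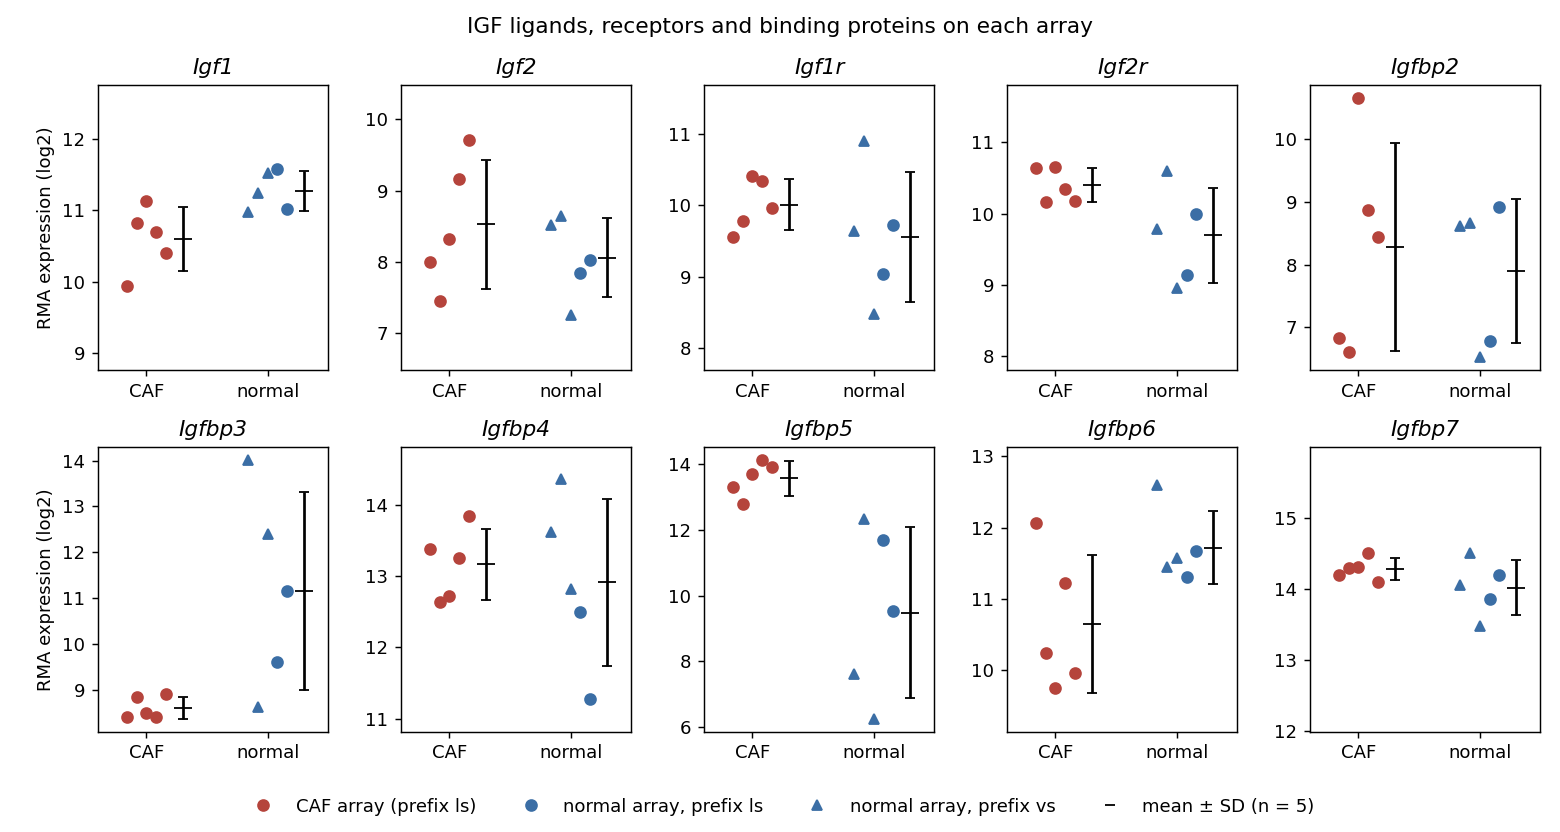
RMA log2 expression (vertical axis, separate scale per panel) of the 10 IGF genes on each CAF array (left, red) and normal array (right, blue; triangles carry label prefix vs, circles ls), with mean and SD beside the points. Igfbp5 lies at 12.79 or above on every CAF array and spreads from 6.25 to 12.34 on the normal arrays, while Igfbp3 sits between 8.40 and 8.90 in CAF and reaches 14.02 in normal fibroblasts.

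The ligand Igf1 had log2 levels of 9.94, 10.83, 11.14, 10.69 and 10.40 on CAF replicates 1 to 5, against 10.98, 11.24, 11.52, 11.58 and 11.02 on normal replicates 1 to 5. CAF replicate 1 was the lowest, and only CAF replicate 3 reached into the normal range. The means were 10.60 ± 0.45 in CAF, against 11.27 ± 0.28 in normal fibroblasts (SD, n = 5 each), a log2 difference of -0.67 ± 0.22 (moderated SE), so that Igf1 was 1.59-fold higher in normal fibroblasts. Limma's adjusted p was 0.127, and the exact 2-sided permutation test over the arrays gave p = 0.0238. All 4 probe sets of Igf1 pointed the same way. A dimmer probe set ran from 9.20 to 9.78 in CAF and from 9.92 to 11.16 in normal fibroblasts, and another from 9.92 to 10.48 in CAF and from 10.64 to 11.80 in normal fibroblasts. Neither pair of ranges overlapped (7.1% of all probe sets did not), with differences of -1.0 ± 0.23 and -0.91 ± 0.22 and limma adjusted p-values of 0.0621 and 0.0710 over all probe sets. The fourth differed by -0.53 ± 0.22 with overlap. The difference of the brightest probe set was -0.70 ± 0.32 against the normal arrays with prefix ls and -0.65 ± 0.27 against those with prefix vs. The non-overlapping probe sets had smaller differences against the ls arrays (-0.66 and -0.61) than against the vs arrays (-1.23 and -1.10). Igf1 is also known as a product of macrophages. Their 16 markers had a median difference of 0.47, positive in all 16 with 0 passing limma's test, so the markers and Igf1 had opposite signs; the part of these cells in the Igf1 level was not tested.

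Igf2, the other ligand, is best known from the embryo. It had 8.0, 7.45, 8.33, 9.16 and 9.71 on CAF replicates 1 to 5 and 8.51, 8.64, 7.26, 7.85 and 8.03 on normal replicates 1 to 5. CAF replicates 4 and 5 were the highest of all 10 arrays, and the other 3 CAF arrays lay within the normal range. The means, 8.53 ± 0.90 in CAF and 8.06 ± 0.56 in normal fibroblasts, differed by 0.47 ± 0.43 (adjusted p = 0.543), and the difference was 0.17 without CAF replicate 5. A dim probe set stayed between 5.14 and 5.31 in CAF and between 5.23 and 5.39 in normal fibroblasts, near the low end of the scale, and its difference was -0.09 ± 0.06. The difference of Igf2 was thus no larger than the spread between replicates.

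The receptors had higher means in CAF without passing the test. Igf1r, the signalling receptor of both ligands, had 9.56, 9.77, 10.41, 10.34 and 9.96 on CAF replicates 1 to 5, against 9.64, 10.90, 8.48, 9.03 and 9.73 on the normal replicates. Normal replicate 2 was the highest array and normal replicates 3 and 4 the lowest, so the CAF values lay inside the normal range. The difference was 0.45 ± 0.40 (adjusted p = 0.524); it was 0.79 without normal replicate 2 and 0.18 without normal replicate 3. Of the 4 other probe sets of Igf1r, 3 had differences of 0.40 ± 0.27, 0.84 ± 0.37 and 0.19 ± 0.14. The dimmest, with levels of 6.33 to 6.63 in CAF and 6.49 to 7.0 in normal fibroblasts, had -0.25 ± 0.10.

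Igf2r, also known as the cation-independent mannose 6-phosphate receptor, clears Igf2 and has no kinase. It had 10.64, 10.17, 10.66, 10.35 and 10.18 on CAF replicates 1 to 5, against 9.78, 10.60, 8.95, 9.15 and 9.99 on the normal replicates. Every CAF array was above 4 of the 5 normal arrays, and normal replicate 2 lay among the CAF values. The means were 10.40 ± 0.24 in CAF and 9.69 ± 0.66 in normal fibroblasts, a difference of 0.70 ± 0.29 (1.63-fold, limma adjusted p = 0.191; exact permutation p = 0.0635). It was 0.93 without normal replicate 2, with an adjusted p of 0.0717. The dimmer probe set had 0.43 ± 0.35. Normal replicates 3 and 4 were the lowest for both receptors, and normal replicate 2 was the highest normal array for both.

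Igfbp5, a binding protein that also attaches to the extracellular matrix, had 13.30, 12.79, 13.70, 14.13 and 13.91 on CAF replicates 1 to 5, against 7.61, 12.34, 6.25, 11.68 and 9.53 on the normal replicates. The CAF arrays were uniformly high, whereas the normal arrays ran from below the array median up to just below the lowest CAF array. The means were 13.57 ± 0.53 in CAF and 9.48 ± 2.60 in normal fibroblasts, and the log2 difference of 4.09 ± 1.07 was the largest in absolute size among all 18193 genes. Limma's adjusted p was 0.0860, and the exact permutation p was 0.00794, the smallest that 5 against 5 arrays allow. Igfbp5 was the only one of the 10 genes whose values did not overlap, which held for 7.16% of all genes and, in the direction of higher CAF values, for 2.97% (4.19% in the other). The difference was 2.96 ± 0.59 against the normal arrays with prefix ls and 4.83 ± 1.22 against those with prefix vs, and between 3.28 (without normal replicate 3) and 4.80 (without normal replicate 2) with 1 array left out.

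The dimmer probe set of Igfbp5 showed the same split with less spread. It had 10.54, 10.41, 11.06, 11.65 and 11.43 on CAF replicates 1 to 5, against 8.72, 10.03, 8.49, 9.65 and 8.89 on the normal replicates. Its normal arrays stood in the same order as those of the brighter probe set, replicate 2 first and replicate 3 last. The difference was 1.86 ± 0.34 (3.64-fold), and it was the only one of the 28 probe sets of these genes to pass when all 45037 probe sets were tested singly with limma (adjusted p = 0.0429; 1.34% of all probe sets passed). At an unadjusted p under 0.05 there were 14 of the 28, against 22.9% of all probe sets. That call held without normal replicate 2 (adjusted p = 0.0357) or CAF replicate 2 (0.0398). It was lost without any 1 of the other 8 arrays, with adjusted p-values of 0.0663 to 0.123 and differences of 1.70 to 1.99. The 2 probe sets thus differed in the size of the CAF excess, 17.0-fold and 3.64-fold, not in its direction. The 10 markers of pericytes and vascular smooth muscle, led by Acta2, Cnn1 and Des, had an array mean of 9.87 to 10.28 in CAF and 9.39 to 10.19 in normal fibroblasts; the means overlapped. Of the 10 markers 8 had positive differences with a median of 0.14, 0 passed limma's test and 2 had an unadjusted p under 0.05 (22.3% of all genes did). These were Kcnj8, a potassium channel subunit, and Myh11, a smooth muscle myosin, both chosen here after their values were seen. Kcnj8 ran from 8.09 to 9.22 in CAF and from 6.88 to 8.06 in normal fibroblasts (difference 1.32 ± 0.28, adjusted p = 0.0589). Its values did not overlap, which held for 7.16% of all genes. Myh11 ran from 11.17 to 12.17 in CAF and from 9.34 to 11.76 in normal fibroblasts (1.12 ± 0.41, adjusted p = 0.152). The 2 negative markers were Notch3 (-0.25 ± 0.29) and Mcam (-0.66 ± 0.54). Acta2, Cnn1 and Des had 0.10 ± 0.10, 0.14 ± 0.16 and 0.14 ± 1.16. The mean of the 12 fibroblast markers was 13.14, 14.37, 12.45, 13.11 and 13.11 on normal replicates 1 to 5. Like Igfbp5, it was highest on replicate 2 and lowest on replicate 3. In CAF it ran from 12.59 to 13.92, within the normal range. The mean of the 7 mesothelial markers was lowest on normal replicates 2 and 4 (6.04 and 9.11), the normal arrays with the most Igfbp5. In CAF it ran from 7.11 to 9.69, also within the normal range. The part of any of these cells in the Igfbp5 level was not tested.

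Igfbp3, the main carrier of IGFs in blood, had 8.41, 8.84, 8.51, 8.40 and 8.90 on CAF replicates 1 to 5, against 14.02, 8.62, 12.41, 9.61 and 11.15 on the normal replicates. The CAF arrays lay within a narrow low band, and normal replicate 2 lay inside that band, while the other normal arrays were all above it. The means were 8.61 ± 0.24 in CAF and 11.16 ± 2.15 in normal fibroblasts, a log2 difference of -2.55 ± 0.88, which corresponds to a 5.86-fold higher mean in normal fibroblasts. Limma's adjusted p was 0.138 and the exact permutation p was 0.0238. The second probe set of Igfbp3 ran from 8.24 to 8.69 in CAF and from 8.29 to 13.96 in normal fibroblasts, with a difference of -2.72 ± 0.92. The difference was -1.77 ± 0.38 against the normal arrays with prefix ls and -3.07 ± 1.03 against those with prefix vs. Without normal replicate 2 it was -3.19 (adjusted p = 0.0666), and without normal replicate 1 it was -1.84 (adjusted p = 0.164).

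Mesothelial markers moved with Igfbp3 on the normal arrays. The mean of the 7 markers was 10.92, 6.04, 10.27, 9.11 and 10.30 on normal replicates 1 to 5, so the 3 arrays with the most Igfbp3 also had the highest marker means and replicate 2 had the lowest of both. In CAF the marker mean was 7.72, 9.69, 8.29, 7.11 and 9.23 on replicates 1 to 5. CAF replicates 2 and 5 thus had higher marker means than normal replicate 4, but less Igfbp3 (8.84 and 8.90, against 9.61). One of these markers, Lrrn4, chosen here after its values were seen, ran from 5.09 to 8.08 in CAF and from 5.33 to 11.77 in normal fibroblasts, a difference of -2.99 ± 1.15 (adjusted p = 0.170). All 7 markers had negative differences with a median of -0.48, and 0 passed limma's test (1 at an unadjusted p under 0.05). The likeness to Igfbp3 on the normal arrays was not particular to mesothelial markers. The mean of the 16 macrophage markers was 13.26, 9.68, 12.23, 11.13 and 10.30 on normal replicates 1 to 5. Like Igfbp3, it was highest on replicate 1 and lowest on replicate 2. The mean of the 10 epithelial markers was also lowest on replicate 2 (6.71), where Krt8 and Krt18 had 6.63 and 5.67. Other epithelial markers, chosen here after their values were seen, went the other way. Sftpc, Sftpb and Muc1 were highest on that replicate, at 8.51, 8.19 and 7.10. Krt19 is in both the epithelial and the mesothelial list. The part of mesothelial or other cells in the Igfbp3 level was not tested.

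**Figure D2:**
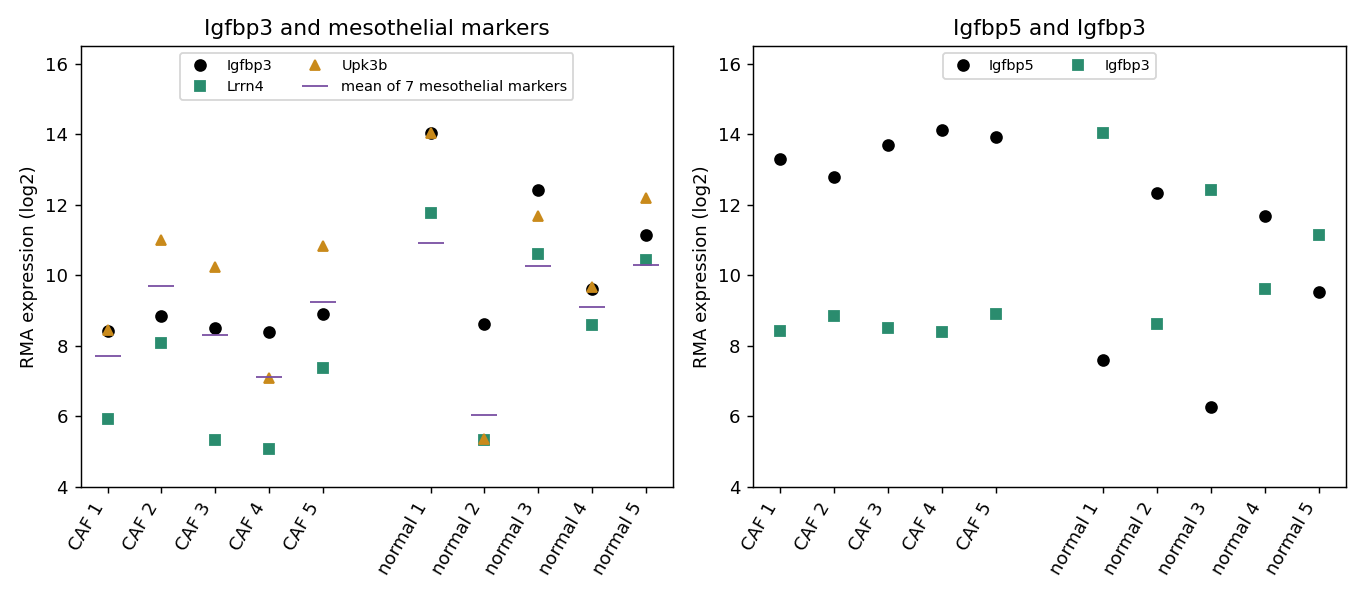
Log2 expression on each of the 10 arrays (CAF replicates left, normal replicates right): Igfbp3 with the mesothelial markers Lrrn4 and Upk3b and the mean of 7 such markers (left panel), and Igfbp5 with Igfbp3 (right panel). On the normal arrays Igfbp3 is high where Igfbp5 is low, as on replicates 1 and 3, and low where Igfbp5 is high, as on replicate 2, and all CAF arrays have high Igfbp5 with low Igfbp3.

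Across the normal arrays the 2 genes ran in nearly opposite order. Igfbp5 was highest on replicate 2 (12.34), followed by replicates 4, 5, 1 and 3, whereas Igfbp3 was lowest on replicate 2 (8.62), followed by replicates 4, 5, 3 and 1. Normal replicate 2 resembled the CAF arrays in both genes. The spread of both genes was much smaller in CAF, with an SD of 0.53 for Igfbp5 and 0.24 for Igfbp3, against 2.60 and 2.15 in normal fibroblasts. A larger SD in normal fibroblasts was seen in 6 of the 10 IGF genes and in 71.1% of all genes.

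The bases just upstream of the RefSeq start of Igfbp5 and Igfbp3 are shown because these genes had the largest differences, in opposite directions. Each run is the 100 bases before the start, 5′ to 3′ on the gene's strand, from RefSeq in build GRCm38.p6. Igfbp5 is on the minus strand at chr1:72874866-72874965 and Igfbp3 on the minus strand at chr11:7213924-7214023. Capitals mark AT-rich matches of the TATA kind.
Igfbp5: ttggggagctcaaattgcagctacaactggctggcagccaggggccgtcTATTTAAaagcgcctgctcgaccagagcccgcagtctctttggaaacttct
Igfbp3: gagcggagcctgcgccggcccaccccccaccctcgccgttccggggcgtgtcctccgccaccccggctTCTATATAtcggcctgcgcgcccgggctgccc

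In Igfbp5 the capitals are TATTTAA, which spans bases 51 to 45 before the start. In Igfbp3 they are overlapping matches to TATANA, on the plus strand from base 30 to 25 and on the minus strand from base 32 to 27. Searched on both strands of the 250 bases upstream, TATTTAA was found in 4.18% and TATANA in 22.6% of the 32851 RefSeq windows of that length. The motif TGANTCA, the AP-1 consensus, was found in 6.75% of windows, CCAAT in 33.8% and GGGCGG, the GC box, in 32.7%. None of these 3 motifs has a match in the windows of Igfbp5 or Igfbp3. Among the other IGF genes, the window of Igf1 holds TGANTCA from base 37 to 31 before the start and CCAAT from base 142 to 138 on the minus strand. TGANTCA is also found in a window of Igfbp2 (bases 39 to 33), and CCAAT in windows of Igf2 and Igfbp6. GGGCGG is found in windows of Igf1r (bases 43 to 38 and 26 to 21), Igf2, Igf2r, Igfbp2 and Igfbp7, and TATANA also in those of Igfbp4 (bases 28 to 23) and Igfbp6. A match is a description of the letters, and the arrays do not measure binding to them.

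Igfbp6, which binds Igf2 in preference to Igf1, had 12.06, 10.25, 9.75, 11.22 and 9.95 on CAF replicates 1 to 5, against 12.60, 11.45, 11.58, 11.30 and 11.67 on the normal replicates. Every CAF array except replicate 1 was below all normal arrays. The means were 10.65 ± 0.97 in CAF and 11.72 ± 0.51 in normal fibroblasts, a difference of -1.07 ± 0.45 (2.10-fold higher in normal fibroblasts, limma adjusted p = 0.196; exact permutation p = 0.0873). It was -1.42 without CAF replicate 1, with an adjusted p of 0.120. Igfbp6 was read by 1 probe set, so there is no second reading of it.

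Igfbp2, a binding protein able to bind integrins, split both groups in the same manner. It had 6.82, 6.60, 10.67, 8.87 and 8.44 on CAF replicates 1 to 5 and 8.62, 8.66, 6.52, 6.77 and 8.92 on the normal replicates. CAF replicates 1 and 2 and normal replicates 3 and 4 were near the array median, and the other 6 arrays were higher. The difference of 0.38 ± 0.82 (adjusted p = 0.811) turned to -0.22 without CAF replicate 3. Igfbp2 and Igfbp5 are neighbours on mouse chromosome 1 with 0 annotated genes between them. Normal replicate 4 was low for Igfbp2 and high for Igfbp5. Normal replicate 3 was low for both (6.52 and 6.25), and normal replicate 2 was high for both (8.66 and 12.34). Shared control of the neighbours was not tested. On chromosome 11 Igfbp3 neighbours Igfbp1, known chiefly from liver, whose values were 4.67 to 5.12 in CAF and 4.79 to 5.02 in normal fibroblasts (difference -0.05 ± 0.09, adjusted p = 0.784), at the low end of the scale on every array.

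Igfbp4, an inhibitor of IGF action that the protease Pappa cleaves, had 13.38, 12.63, 12.73, 13.26 and 13.85 on CAF replicates 1 to 5, against 13.63, 14.36, 12.82, 12.50 and 11.27 on the normal replicates. Normal replicate 2 was the highest array and normal replicate 5 the lowest. The difference was 0.25 ± 0.52 (adjusted p = 0.798), and its sign depended on the normal arrays: it was 1.28 ± 0.42 against those with prefix ls and -0.43 ± 0.39 against those with prefix vs, and -0.16 without normal replicate 5. All 6 probe sets of Igfbp4 had this pattern, with differences of 0.97 to 1.56 against the ls and -0.48 to -0.34 against the vs arrays. Pappa itself differed by 0.32 ± 0.32 (adjusted p = 0.582).

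Igfbp7, a relative with low affinity for IGFs, was bright on every array, with 14.20, 14.30, 14.31, 14.51 and 14.10 on CAF replicates 1 to 5 and 14.05, 14.50, 13.48, 13.85 and 14.20 on the normal replicates. The ranges overlapped, and the difference was 0.26 ± 0.17 (adjusted p = 0.389). Its 2 dimmer probe sets had 0.61 ± 0.24 and -0.15 ± 0.06, of opposite sign. The level of the brightest lies near the top of the scale.

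**Figure D3:**
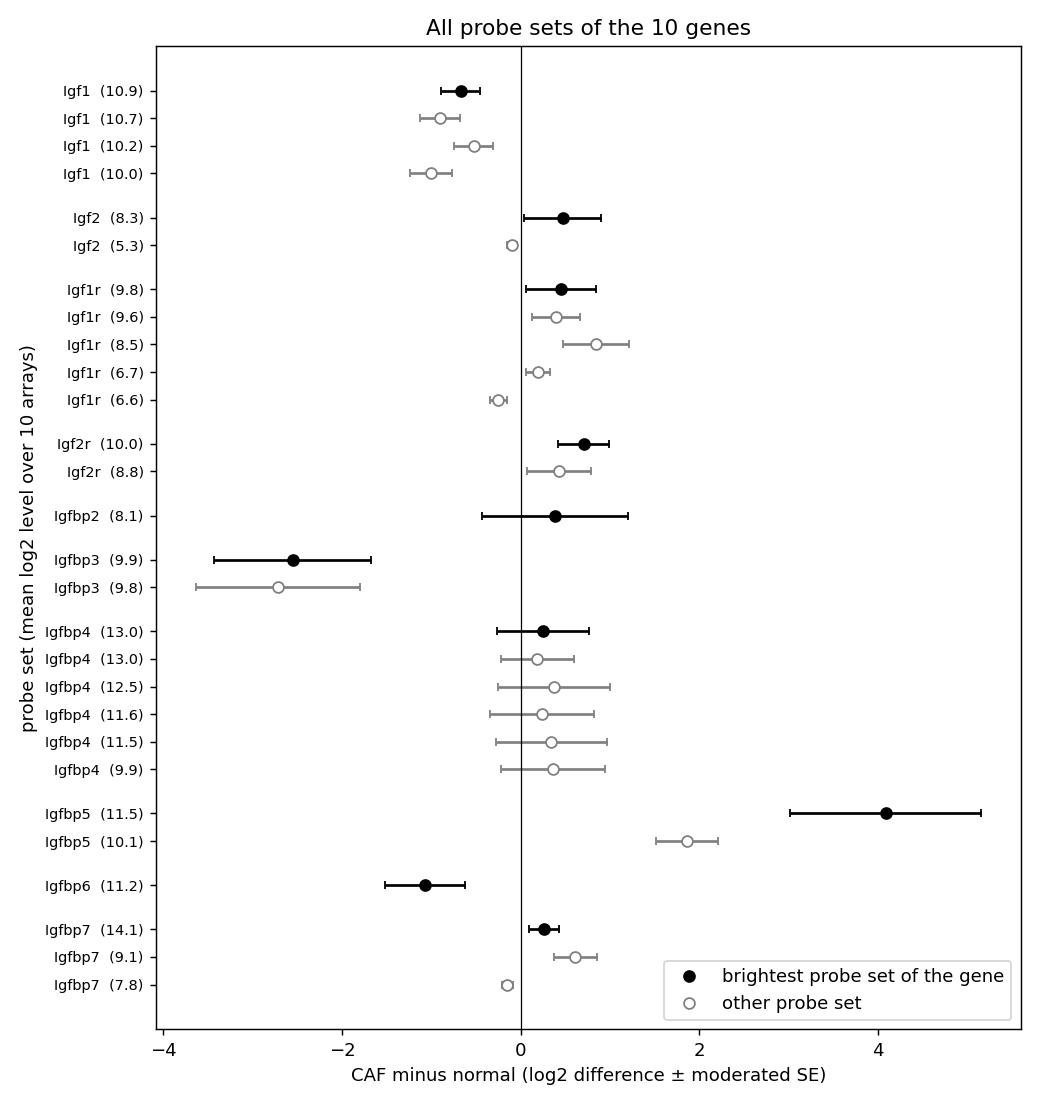
Log2 difference, CAF minus normal, with moderated SE (horizontal axis) for all 28 probe sets of the 10 genes, filled for the brightest probe set of a gene and open for the others; the mean level over the 10 arrays stands beside each name. All probe sets of Igf1 and Igfbp3 are left of 0 and both of Igfbp5 are right of it, while single dim probe sets of Igf2, Igf1r and Igfbp7 have the sign opposite to their brightest one.

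Other genes of the pathway were taken from 5 lists: receptor and adaptor genes, binding protein proteases with their inhibitors and other carriers, the growth hormone arm, IGF mRNA-binding proteins, and imprinted growth genes. Of 74 genes listed 69 were measured, and 0 passed limma's test over all genes (lowest adjusted p 0.0570), where 0.753% of all genes passed. At an unadjusted p under 0.05 there were 18 of the 69, against 22.3% of all genes. Their median difference was -0.03, against -0.04 over all genes, with 32 positive and 37 negative. The values of the groups did not overlap for 2 of the 69, Akt2 and Tsc1, against 7.16% of all genes.

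Of 21 receptor and adaptor genes 0 passed, 8 had an unadjusted p under 0.05 (22.3% of all genes did), and the median difference was -0.01. Akt2, a kinase downstream of the receptors, averaged 10.44 ± 0.05 in CAF and 10.94 ± 0.22 in normal fibroblasts, with no overlap (difference -0.49 ± 0.10, adjusted p = 0.0570). It passed when the probe sets were tested singly (adjusted p = 0.0485), against the vs normal arrays alone (0.0152) and without normal replicate 5 (0.0418), within a range of 0.0152 to 0.306 over its alternatives. Its other probe sets had -0.34 ± 0.08 and -0.37 ± 0.09. Grb10, an adaptor that restrains the insulin and IGF1 receptors, had 12.26 ± 0.39 in CAF and 13.05 ± 0.29 in normal fibroblasts (difference -0.78 ± 0.20, adjusted p = 0.0849), and its other probe sets had -0.84 ± 0.29 and -0.53 ± 0.26. Tsc1, which restrains mTOR signalling, had 8.37 ± 0.21 in CAF and 7.97 ± 0.11 in normal fibroblasts, without overlap (0.40 ± 0.11, adjusted p = 0.0873); its dimmer probe sets had the opposite sign (-0.08 ± 0.10 and -0.13 ± 0.09).

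In the growth hormone arm 0 of 8 genes passed and 7 were positive, with a median of 0.38. Cish, a feedback inhibitor induced by STAT5, had 9.58 ± 0.49 in CAF and 8.71 ± 0.35 in normal fibroblasts (difference 0.87 ± 0.25, adjusted p = 0.0943). Socs2, an inhibitor of growth hormone signalling, had 10.82 ± 0.32 in CAF and 9.67 ± 0.82 in normal fibroblasts (1.15 ± 0.36, adjusted p = 0.118). Stat5b, a transcription factor of the arm, had -0.28 ± 0.09 (adjusted p = 0.134), and its other probe set had -0.15 ± 0.11. Its relative Stat5a, named here after its values were seen, had the opposite sign (0.39 ± 0.20, adjusted p = 0.284). The mean of the 8 genes was 9.60 to 10.10 over the CAF arrays and 9.23 to 9.78 over the normal arrays, which overlapped.

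Of 24 proteases, inhibitors and carriers 0 passed, with a median of -0.03. Htra3, a secreted serine protease, differed by -0.35 ± 0.10 (adjusted p = 0.107), Plau, the urokinase plasminogen activator, by 0.84 ± 0.31 (adjusted p = 0.160), and Adam9, a membrane protease, by 0.50 ± 0.22 (adjusted p = 0.210). By their brightest probe sets, both mRNA-binding proteins measured had negative differences, -0.19 ± 0.09 for Igf2bp3 (adjusted p = 0.218) and -0.23 ± 0.14 for Igf2bp1 (adjusted p = 0.358). The dimmer probe sets of Igf2bp3 were of mixed sign, with 0.22 ± 0.26, 0.09 ± 0.16, 0.29 ± 0.14, -0.21 ± 0.10 and -0.003 ± 0.08. Of 15 imprinted growth genes 0 passed, 5 were positive and 10 negative, and the median was -0.08. Besides Grb10, which is in this list too, Peg3, a zinc finger gene expressed from the paternal allele, had 1.04 ± 0.30 (adjusted p = 0.102) and Dcn, the matrix proteoglycan decorin, 0.72 ± 0.44 (adjusted p = 0.353).

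**Figure D4:**
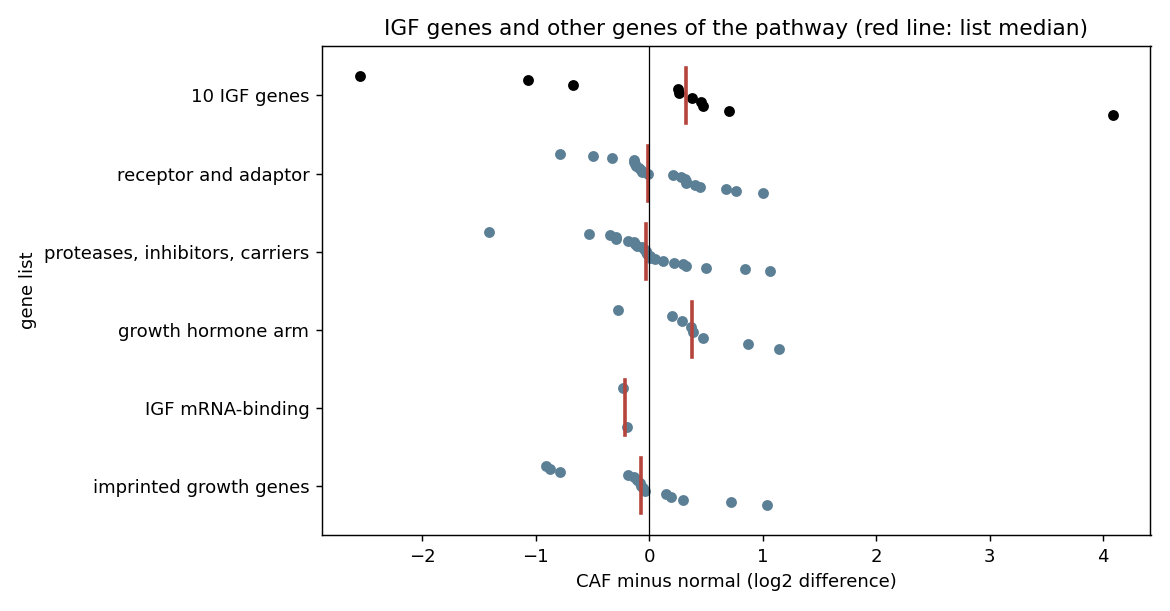
Log2 difference, CAF minus normal (horizontal axis), of the 10 IGF genes and of the genes of 5 pathway lists (rows), 1 point per gene, with the list median as a red line. Igfbp5 at 4.09 and Igfbp3 at -2.55 lie outside the range of all pathway genes, and the growth hormone arm is the row with 7 of 8 points right of 0.

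The genes whose pattern over the 10 arrays was most like that of Igfbp5 and Igfbp3 were found by the root mean square difference of log2 values after each gene was centred on its own mean. For Igfbp5 these were Dio2, which activates thyroid hormone (root mean square difference 1.04), Asb5, of the ankyrin repeat and SOCS box family (1.23), Nr4a2, an orphan nuclear receptor (1.32), and Sorbs2, an adaptor of actin-based contacts (1.42), against a median of 2.66 over all genes. Dio2 had 11.79 on normal replicate 2, the normal array with the most Igfbp5, and 6.26 and 6.34 on replicates 1 and 3, those with the least. For Igfbp3 they were Gpm6a, a membrane glycoprotein (0.80), Cadm4, a cell adhesion molecule (0.81), Rspo1, a secreted enhancer of WNT signalling (0.93), and Ildr2, a membrane protein (0.97), against a median of 1.88. Gpm6a had 11.28 and 10.67 on normal replicates 1 and 3, which had the most Igfbp3, and 4.61 on replicate 2, which had the least. The likeness includes the difference between the groups, since both genes were chosen for it, and only Sorbs2 of the 8 passed limma's test (2.89 ± 0.46, adjusted p = 0.0394).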

How the data were processed

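RNA of 10 cultures was hybridised to 1-colour arrays, 6 ug of total RNA each. The authors' deposited table holds log2 values. Per the submitters' processing notes RMA was run in Affymetrix Expression Console; limma is named as well, and versions are not given in the sources used here. RMA corrects background, quantile-normalises and gives no detection call, so dim values may be background, and differences are relative to the rest of the array. Of 45101 probe sets 64 controls were left out, and 34945 had a single gene symbol, of which 34741 were updated by Entrez number to the names of GRCm38.p6. Each gene took its probe set with the highest mean over the 10 arrays.

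The test over all genes was limma 3.58.1 (lmFit and eBayes, R 4.3.3), with group as the only term, Benjamini-Hochberg adjustment over all genes and a threshold of 0.05. Every adjusted p is from limma, over all genes unless probe sets are named, and every difference is the CAF mean less the normal mean (log2), with its moderated SE. Single genes also had an exact 2-sided permutation test. The script was tested on simulated data. The precision is limited by 5 arrays per group, and p-values measure the spread between these arrays, since the labels do not tie arrays to animals.

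The members and lists were chosen with earlier results of these data known. The text names all members, the 3 genes with the smallest p in each pathway list with the best in the other direction, the 3 brightest markers of each cell type and the 4 genes most like the 2 members with the largest differences. Alternatives concerned probe sets, normalisation, dim genes, the prior, replicate numbers, label prefixes, the test and leaving out each array. Deviations of same-numbered arrays of the groups had a correlation above 0.1 in 1 of 5 pairs, and the lowest was -0.53. The numbers were therefore not taken to pair them.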

Additional observations from a re-analysis of the deposited data

Results flagged for a closer look

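In Igfbp6, normal replicate 1 stood apart from the other normal arrays. Its log2 level was 12.60, its gap to the nearest array was 0.715 of the group's range, and the critical value of Dixon's test for 5 samples is 0.710. Of the 20 groups of arrays checked (10 genes in CAF and in normal fibroblasts) this was the only one, and chance alone gives about 1 in 20. CAF replicate 1 was likewise the highest CAF array, at 12.06.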

How the results depend on the processing

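The sign of the difference was the same in all 21 alternatives for 8 of the 10 genes, the exceptions being Igfbp2, at -0.22 without CAF replicate 3 (-0.22 to 0.80 without 1 array), and Igfbp4, at -0.43 against the normal arrays with prefix vs and -0.16 without normal replicate 5 (-0.16 to 0.62 without 1 array). The cause was not tested. No gene-level alternative called any of the 10; testing probe sets singly called 1, Igfbp5, through its dimmer probe set, whose difference was 1.70 to 2.08 without 1 array, an alternative added after seeing the data. Adjusted p-values over the alternatives ran from 0.0524 to 0.355 for Igfbp5, from 0.0666 to 0.447 for Igfbp3 and from 0.0787 to 0.341 for Igf1. Pathway genes called numbered 2 with single probe sets (Akt2 and Pdpk1), 1 against the vs normal arrays and 0 to 1 without 1 array. Pdpk1, chosen after its values were seen, had 0.59 ± 0.11 on the probe set that passed. Its brightest probe set had 0.31 ± 0.11 (adjusted p = 0.142) in the test over all genes. The count over all genes, 137, was 605 probe sets tested singly, 285 with array medians subtracted (250 higher and 35 lower, against 102 and 35), 50 among the brighter genes, 46 with a trended robust prior, 1 against the ls normal arrays, 0 with the prefix as a term (2649 genes at an unadjusted p under 0.05), 0 by the exact permutation test (4070 genes at an unadjusted p under 0.05) and 0 to 166 without 1 array; leaving out any array but normal replicate 2 or CAF replicate 2 moved it by over 1.5 times. With 5 against 5 arrays the smallest exact p is 0.00794, and its adjusted value here was 0.111. In these data the permutation test therefore could not call any gene, among the 10 or elsewhere. Quantile normalisation gave 43 higher and 49 lower. With the replicate number as a block it was 0 (3017 genes at an unadjusted p under 0.05), and Igfbp5 had an adjusted p of 0.213; the block changed no call among the 10 genes. Deviations of same-numbered arrays correlated at -0.53 to 0.34, and 1 of 5 CAF arrays correlated best with its own number. Without detection calls, dim probe sets such as the second of Igf2 set no level.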
